A study of Danio rerio with 23 samples.

Results

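The genes described here are ddx4, nanos3, dnd1, tdrd7a and dazl, 5 genes chosen by name as markers of zebrafish primordial germ cells. All 5 were found by symbol among the 31743 genes of each table, and all 5 passed the filter on low counts that left 19504 genes for testing. Zebrafish germ cells are set aside by inherited germ plasm, a store of maternal RNA and protein that a few cells of the early embryo take up. Germ plasm transcripts are kept in those cells while microRNAs and other decay factors clear the same maternal RNAs from somatic cells, and the germ cells then migrate towards the gonad, guided by the chemokine Cxcl12a. In whole embryos these transcripts are therefore a small part of a large mixture, made up of what the germ cells hold and what the soma still retains.

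The study measured RNA of whole zebrafish embryos from crosses of wild-type fish to carriers of a heat-shock transgene. The transgenes were hs:wnt8a/+, which makes the Wnt ligand Wnt8a, and hs:dkk1b/+, which makes Dkk1b, a secreted antagonist of Wnt signalling. A heat-shock promoter can act in every cell, so neither transgene was aimed at germ cells. The 23 libraries formed 8 groups: hs:wnt8a/+ embryos at 7.5 hpf (hours post fertilisation, 3 libraries), their wild-type siblings at 7.5 hpf (3), hs:wnt8a/+ embryos at 5.5 hpf (2), their siblings at 5.5 hpf (3), hs:dkk1b/+ embryos at 7.5 hpf (3), their siblings at 7.5 hpf (3), hs:dkk1b/+ embryos at 5.5 hpf (3) and their siblings at 5.5 hpf (3).

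All groups were heat shocked, siblings included, so no library shows an embryo without heat. Embryos of the hs:wnt8a crosses were held at 39 °C for 30 minutes and those of the hs:dkk1b crosses at 37 °C for 60 minutes, in tubes of 10 embryos, and recovered at 29 °C. The crosses therefore differ in heat regime as well as in transgene, and these cannot be told apart between siblings of the 2 lines. Transgenic embryos were picked by fluorescence, and embryos of several mating pairs were pooled. No label ties a library to a clutch of its own, so a p-value here reflects how far libraries of a group differ, which could be technical spread. Sample titles give 5.5 and 7.5 hpf where the time point field gives 5 and 7 hpf, and whether either is the age at heat shock or at collection is not stated. The ages of the titles name the groups here.

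Total counts were 13845788 to 20467185 per library. The dkk1b gene had 2292 to 19063 CPM (the count relative to library size, scaled with TMM factors) in the 6 hs:dkk1b libraries and 17.3 to 55.2 CPM in their 6 sibling libraries. The wnt8a_1 entry, the first of a pair of identifiers that share the symbol wnt8a, had 2664 to 4218 CPM in the 5 hs:wnt8a libraries. The libraries labelled siblings of hs:wnt8a did not all lack it: they held 588, 392 and 721 CPM at 5.5 hpf and 180, 2.33 and 14.8 CPM at 7.5 hpf (replicates 1, 2 and 3), against 4.17 to 7.62 CPM in siblings of hs:dkk1b. Whether they held transgenic embryos was not tested. No value at 5.5 hpf that rests on siblings of hs:wnt8a can be given without such a library. At 7.5 hpf the hs:wnt8a effects and the sibling stage changes of the 5 genes are given with and without replicate 1. Other values keep that library unless stated. Markers of other tissues were present in every library, with none of them at 0. Between the 7.5 hpf and the 5.5 hpf libraries, the summed level of 4 yolk syncytial layer markers was 906 to 1389 CPM against 211 to 606 CPM, that of 2 endoderm markers was 51.0 to 107 CPM against 127 to 228 CPM, and that of 3 mesoderm markers was 169 to 767 CPM against 489 to 1528 CPM. The ranges of yolk syncytial layer and endoderm markers were apart between the times, and those of mesoderm, enveloping layer and neuroectoderm markers overlapped. The part of cell composition in the results was not tested. In whole embryos fewer germ cells, less RNA per germ cell and less of these RNAs left in somatic cells cannot be told apart. CPM and TPM are also levels relative to the rest of each library.

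ddx4 (ENSDARG00000014373), also known as vasa, encodes the DEAD-box RNA helicase that marks germ cells in most animals. Per unit of length it was the most abundant of the 5 transcripts in all 23 libraries. At 7.5 hpf it ran from 21.1 to 33.5 TPM with a median of 26.2 TPM, and at 5.5 hpf from 89.7 to 240.3 TPM with a median of 201 TPM (12 and 11 libraries; TPM as deposited, a unit scaled by transcript length). In CPM, hs:wnt8a embryos had 41.5, 29.1 and 26.2 CPM at 7.5 hpf and 268 and 310.3 CPM at 5.5 hpf. Siblings of hs:wnt8a had 40.7, 25.6 and 23.1 CPM at 7.5 hpf and 269, 133 and 278 CPM at 5.5 hpf. The lowest 5.5 hpf library of this line, replicate 2 of the siblings, still stood far above every 7.5 hpf library. For hs:dkk1b embryos the values were 31.7, 36.5 and 26.8 CPM at 7.5 hpf and 108, 296 and 113 CPM at 5.5 hpf. Their siblings had 30.1, 41.3 and 31.2 CPM at 7.5 hpf and 123, 286 and 121 CPM at 5.5 hpf. Replicate 2 stood above its group in both 5.5 hpf groups of the hs:dkk1b line, and in no group did the times overlap.

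The ddx4 level at 7.5 hpf was below that at 5.5 hpf in each of the 4 genotype groups, by edgeR's quasi-likelihood test with Benjamini-Hochberg adjustment over all 19504 genes. The log2 fold change was -3.16 ± 0.43 in hs:wnt8a embryos (SE, adjusted p = 4.57e-05), a level 8.96-fold lower at 7.5 hpf. It was -2.93 ± 0.41 in siblings of hs:wnt8a (adjusted p = 3.75e-05), or 7.60-fold lower. The hs:dkk1b line gave smaller values, -2.44 ± 0.40 in hs:dkk1b embryos (adjusted p = 2.77e-04, 5.44-fold lower) and -2.37 ± 0.40 in their siblings (adjusted p = 3.14e-04, 5.16-fold lower). Without replicate 2 of the hs:dkk1b line at 5.5 hpf, in both genotypes, the ddx4 changes of that line were -1.80 (adjusted p = 3.17e-04) and -1.83 (adjusted p = 2.25e-04). These fold changes placed ddx4 among the lowest 1.09% to 1.31% of all genes tested in every group.

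**Figure D1:**
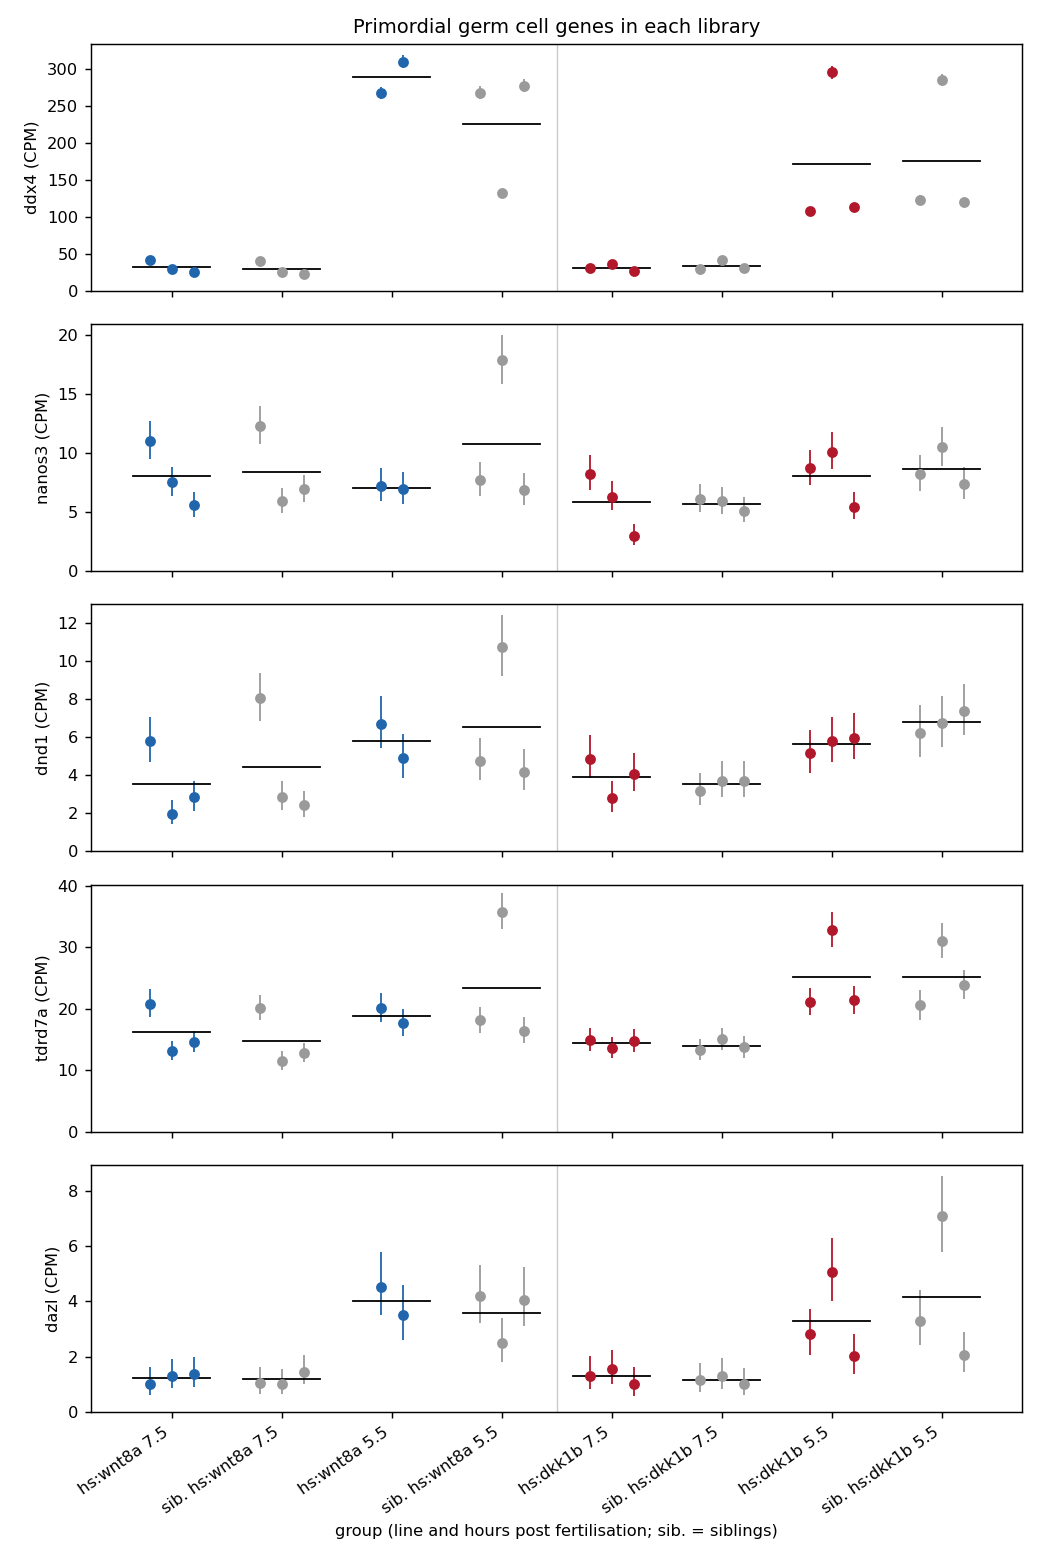
CPM (TMM-scaled, linear axes from 0) of ddx4, nanos3, dnd1, tdrd7a and dazl in each of the 23 libraries, by group, with hs:wnt8a and hs:dkk1b embryos in colour and siblings in grey. Points are libraries in order of replicate number, bars are exact Poisson 95% intervals of the count and lines are group means; ddx4 and dazl are lower in all 12 libraries at 7.5 hpf than in any of the 11 at 5.5 hpf, while the ranges of the other 3 genes overlap.

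dazl (ENSDARG00000036214) encodes an RNA-binding protein of the Deleted in azoospermia family, which promotes translation of germ cell transcripts and can relieve microRNA repression of them in zebrafish. It was the least abundant member, at 0.988 to 1.66 TPM at 7.5 hpf and 1.98 to 6.81 TPM at 5.5 hpf. Its counts were small, 17 to 32 reads per library at 7.5 hpf and 33 to 108 at 5.5 hpf, so counting error alone is wide here. The hs:wnt8a embryos held 1.03, 1.30 and 1.37 CPM at 7.5 hpf and 4.53 and 3.5 CPM at 5.5 hpf. Siblings of hs:wnt8a held 1.06, 1.02 and 1.46 CPM at 7.5 hpf and 4.18, 2.50 and 4.07 CPM at 5.5 hpf. The times did not overlap in either genotype of this line. In hs:dkk1b embryos dazl had 1.32, 1.54 and 1.01 CPM at 7.5 hpf and 2.80, 5.06 and 2.01 CPM at 5.5 hpf. In their siblings it had 1.16, 1.30 and 1.02 CPM at 7.5 hpf and 3.30, 7.07 and 2.07 CPM at 5.5 hpf. As with ddx4, replicate 2 held the highest 5.5 hpf level in both genotypes of the hs:dkk1b line.

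By the same edgeR test, dazl fell in all 4 groups, by 1.69 on the log2 scale in hs:wnt8a embryos (SE 0.43, adjusted p = 0.00434, 3.23-fold lower) and by 1.59 in their siblings (SE 0.40, adjusted p = 0.00370, 3.01-fold lower). In hs:dkk1b embryos it fell by 1.35 (SE 0.40, adjusted p = 0.0152, 2.54-fold lower) and in their siblings by 1.84 (SE 0.40, adjusted p = 0.00210, 3.57-fold lower). The call in hs:dkk1b embryos rested on few libraries: it was lost without 5.5 hpf replicate 2 (dazl -0.90, adjusted p = 0.131), without 7.5 hpf replicate 3 (-1.20, adjusted p = 0.0683) and without both genotypes of 7.5 hpf replicate 1 (-1.36, adjusted p = 0.0505). Without 5.5 hpf replicate 2 of both genotypes the value for dazl was the same, -0.90, at an adjusted p of 0.0490. In siblings of hs:dkk1b, dazl without that pair was at -1.20 (adjusted p = 0.0100). Over all 12 libraries at 7.5 hpf against all 11 at 5.5 hpf, ddx4 and dazl were the members whose ranges did not overlap, both lower, where 6.52% of all tested genes were likewise lower without overlap.

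tdrd7a (ENSDARG00000032808) encodes a Tudor domain protein of the germ granules. It had 20.9, 13.2 and 14.5 CPM in hs:wnt8a embryos at 7.5 hpf and 20.1 and 17.7 CPM at 5.5 hpf. In siblings of hs:wnt8a it had 20.1, 11.5 and 12.8 CPM at 7.5 hpf and 18.1, 35.8 and 16.5 CPM at 5.5 hpf. Replicate 1 at 7.5 hpf was high in both genotypes of this line, above both 5.5 hpf libraries in hs:wnt8a embryos and inside the 5.5 hpf range in siblings. The hs:dkk1b embryos held 14.9, 13.6 and 14.8 CPM of tdrd7a at 7.5 hpf and 21.1, 32.9 and 21.4 CPM at 5.5 hpf, and their siblings held 13.4, 15.0 and 13.7 CPM at 7.5 hpf and 20.6, 31.0 and 23.9 CPM at 5.5 hpf. In this line the 7.5 hpf libraries lay close together and below every 5.5 hpf library.

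With edgeR's quasi-likelihood test, tdrd7a fell in hs:dkk1b embryos (log2 fold change -0.80, SE 0.27, adjusted p = 0.0326, 1.74-fold lower) and in their siblings (-0.84, SE 0.27, adjusted p = 0.0245, 1.79-fold lower). Both calls were close to the threshold. In hs:dkk1b embryos leaving out 5.5 hpf replicate 2 moved tdrd7a to -0.56 (adjusted p = 0.185), and leaving out 7.5 hpf replicate 1, 2 or 3 gave adjusted p values of 0.0703, 0.0840 and 0.0765. In siblings of hs:dkk1b the tdrd7a call was lost without 5.5 hpf replicate 2 (-0.67, adjusted p = 0.122) and without 7.5 hpf replicate 1 (adjusted p = 0.0745) or 3 (adjusted p = 0.0717). Scaling to total counts alone gave -0.66 for tdrd7a in hs:dkk1b embryos (adjusted p = 0.0584). The test was not passed in siblings of hs:wnt8a (-0.66, 95% interval -1.23 to -0.10, adjusted p = 0.0577) or in hs:wnt8a embryos (-0.22, interval -0.86 to 0.41, adjusted p = 0.587). Without 7.5 hpf replicate 1 of the hs:wnt8a siblings, the library with 180 CPM of wnt8a_1, the sibling value was -0.95 (adjusted p = 0.0140). It also passed without 5.5 hpf replicate 1 (-0.82, adjusted p = 0.0392) or replicate 3 (-0.87, adjusted p = 0.0253) and by DESeq2 (-0.69, adjusted p = 0.0380). All of these fits kept 5.5 hpf replicate 2, which held the most tdrd7a of the hs:wnt8a siblings at that time. With only that library left out, the sibling value was -0.22 and was not called.

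dnd1 (ENSDARG00000022813) encodes Dead end, an RNA-binding protein that keeps germ cell transcripts from microRNA repression and without which zebrafish germ cells do not migrate or survive. Its level was 5.79, 1.98 and 2.84 CPM in hs:wnt8a embryos at 7.5 hpf and 6.69 and 4.91 CPM at 5.5 hpf. Siblings of hs:wnt8a had 8.05, 2.87 and 2.42 CPM at 7.5 hpf and 4.75, 10.7 and 4.20 CPM at 5.5 hpf. Replicate 1 at 7.5 hpf held 2.40 times (transgenic) and 3.04 times (siblings) the mean of the other libraries of its group. In the hs:dkk1b line the 7.5 hpf levels of dnd1 were 4.89, 2.79 and 4.09 CPM in transgenic embryos and 3.20, 3.72 and 3.72 CPM in siblings. At 5.5 hpf they were 5.18, 5.80 and 5.96 CPM in transgenic embryos and 6.23, 6.75 and 7.37 CPM in siblings, above every 7.5 hpf library of the line.

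None of the 4 stage changes of dnd1 passed edgeR's quasi-likelihood test. Its log2 fold changes were -0.72 (95% interval -1.71 to 0.27, adjusted p = 0.238) in hs:wnt8a embryos and -0.57 (-1.45 to 0.32, adjusted p = 0.30) in their siblings. They were -0.53 (-1.42 to 0.37, adjusted p = 0.372) in hs:dkk1b embryos and -0.93 (-1.83 to -0.04, adjusted p = 0.104) in their siblings. Each interval reaches below -1 on the log2 scale, and 3 of the 4 also reach above 0. Without 7.5 hpf replicate 1, dnd1 was at -1.26 in hs:wnt8a embryos (adjusted p = 0.0491) and at -1.31 in their siblings (adjusted p = 0.0157), and both passed. A fit to the siblings of hs:dkk1b alone also called dnd1 (-0.93, adjusted p = 0.0137).

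nanos3 (ENSDARG00000068255) encodes a zinc-finger translational repressor that germ cells need for their maintenance, and its maternal RNA is protected in zebrafish germ cells through its 3′ UTR. Per length it was the second most abundant member in 21 of the 23 libraries, at 6.98 to 25.1 TPM at 7.5 hpf and 11.6 to 36.4 TPM at 5.5 hpf. The hs:wnt8a embryos had 11.0, 7.53 and 5.58 CPM at 7.5 hpf and 7.25 and 6.92 CPM at 5.5 hpf, and their siblings had 12.3, 5.93 and 6.94 CPM at 7.5 hpf and 7.71, 17.9 and 6.84 CPM at 5.5 hpf. For hs:dkk1b embryos the nanos3 level was 8.27, 6.32 and 3.02 CPM at 7.5 hpf and 8.71, 10.1 and 5.47 CPM at 5.5 hpf. Their siblings had 6.12, 5.91 and 5.13 CPM at 7.5 hpf and 8.21, 10.5 and 7.37 CPM at 5.5 hpf, the one group in which the times did not overlap. The log2 fold change of nanos3 was 0.18 (95% interval -0.72 to 1.08, adjusted p = 0.768) in hs:wnt8a embryos, -0.37 (-1.16 to 0.42, adjusted p = 0.463) in their siblings, -0.46 (-1.27 to 0.34, adjusted p = 0.384) in hs:dkk1b embryos and -0.60 (-1.41 to 0.21, adjusted p = 0.249) in their siblings, by edgeR's quasi-likelihood test. None passed, and every interval holds both a fall and a rise. Without 5.5 hpf replicate 2 the value in siblings of hs:wnt8a was 0.20 for nanos3, and for dnd1 and tdrd7a it was -0.015 and -0.22, none of them called.

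Between 7.5 and 5.5 hpf, edgeR's test thus called 2 of the 5 genes lower in hs:wnt8a embryos, where 18.1% of all genes tested were called lower, and 2 of 5 in their siblings (18.4%). It called 3 of 5 lower in hs:dkk1b embryos (15%) and 3 of 5 in their siblings (15.4%). No member was called higher, and with both directions counted the calls made up 39.6%, 40.2%, 30.1% and 31% of all genes in the same order of groups. Median log2 fold changes of the 5 were -0.72 in hs:wnt8a embryos, -0.66 in their siblings, -0.80 in hs:dkk1b embryos and -0.93 in their siblings, beside 0.05, 0.04, 0.04 and 0.04 over all genes. Lower levels without overlap of the times were seen for 2 members in hs:wnt8a embryos (30.8% of all genes) and for 2 in their siblings (22.7%). They were seen for 4 in hs:dkk1b embryos (21.2%) and for 5 in their siblings (21.5%). The 4 stage changes rest on separate libraries, which the comparisons of transgenic embryos with siblings use again.

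**Figure D2:**
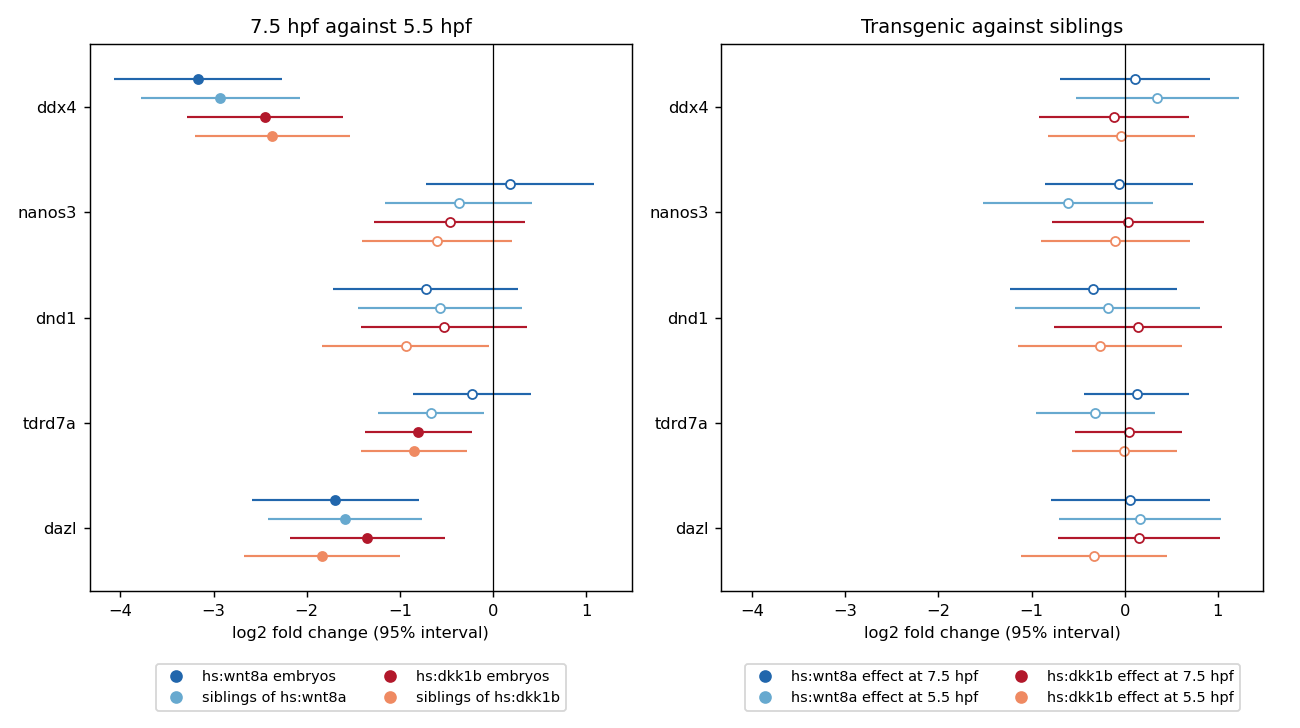
Log2 fold changes of the 5 genes with 95% intervals, between 7.5 and 5.5 hpf in each genotype (left) and between transgenic embryos and siblings at each time (right); filled points passed edgeR's quasi-likelihood test at an adjusted p under 0.05 and open points did not. The ddx4 and dazl points lie between -3.16 and -1.35 on the left and between -0.33 and 0.35 on the right.

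The mixture of the 5 transcripts differed between the times. Of their summed TPM, ddx4 made up 41.1% to 55.8% at 7.5 hpf (median 46.9%) and 59.8% to 88.2% at 5.5 hpf (median 81.0%). The nanos3 share was 14.9% to 32.2% at 7.5 hpf (median 26.8%) and 5.04% to 20.6% at 5.5 hpf (median 7.62%). tdrd7a made up 14.7% to 21.0% at 7.5 hpf and 3.71% to 11.9% at 5.5 hpf. The shares of ddx4 and of tdrd7a did not overlap between the times, while those of nanos3, dnd1 and dazl did. The sum itself was 46.9 to 78.7 TPM at 7.5 hpf (median 53.9 TPM) and 127 to 292 TPM at 5.5 hpf (median 236 TPM). The ratio of ddx4 to nanos3 TPM was 1.29 to 3.47 at 7.5 hpf and 2.90 to 17.5 at 5.5 hpf, and that of ddx4 to dazl was 13.2 to 33.9 at 7.5 hpf and 31.2 to 74.2 at 5.5 hpf. These shares carry no test of their own. They are parts of a sum, so a lower ddx4 share raises the combined share of the others. In TPM, tdrd7a had a median of 9.02 at 7.5 hpf and 12.9 at 5.5 hpf, and nanos3 14.3 and 16.0.

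The order of TPM levels was ddx4, nanos3, tdrd7a, dnd1, dazl in 21 libraries. In replicate 3 of hs:dkk1b embryos, at both times, tdrd7a stood above nanos3. Neighbours in this order were not always apart within a group: the TPM ranges of nanos3 and tdrd7a overlapped in 4 of the 8 groups, those of tdrd7a and dnd1 in 2 (siblings of hs:wnt8a at both times), and those of ddx4 and nanos3 in 1 (siblings of hs:wnt8a at 7.5 hpf). The ranges of dnd1 and dazl were apart in all 8 groups.

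**Figure D3:**
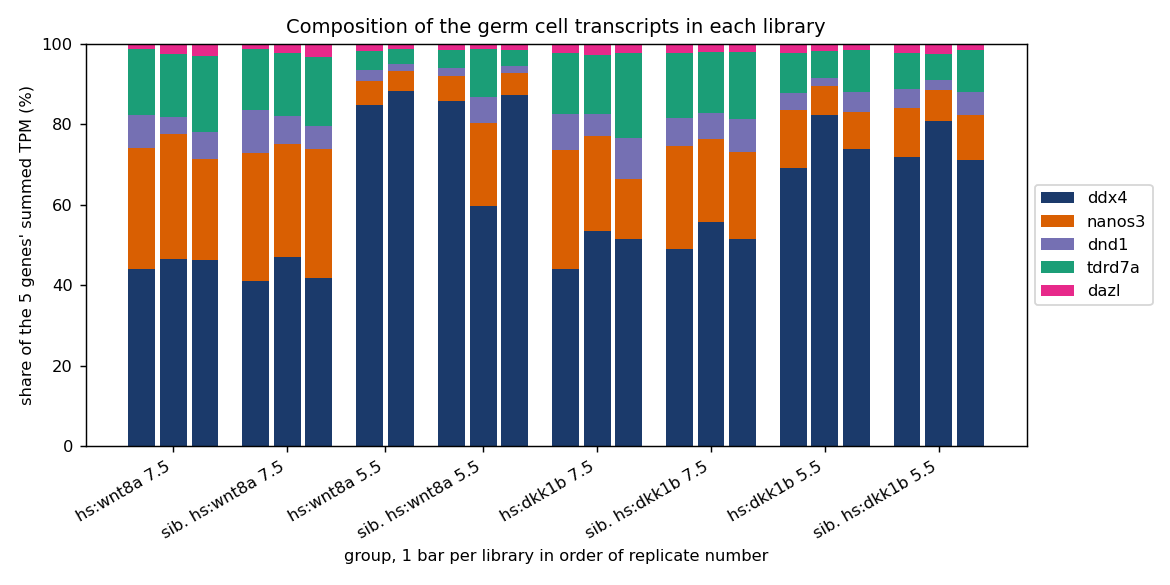
Share of each of the 5 genes in their summed TPM, with 1 stacked bar per library in order of replicate number within its group. The ddx4 share is 41.1% to 55.8% in the 12 libraries at 7.5 hpf and 59.8% to 88.2% in the 11 at 5.5 hpf; the 5.5 hpf library with the lowest ddx4 share is replicate 2 of the siblings of hs:wnt8a.

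Neither transgene gave a called change in any of the 5 genes at either time. At 7.5 hpf, hs:wnt8a embryos against their siblings gave log2 fold changes of 0.12 for ddx4 (95% interval -0.69 to 0.92), 0.06 for dazl (-0.79 to 0.91), 0.13 for tdrd7a (-0.44 to 0.69), -0.34 for dnd1 (-1.23 to 0.56) and -0.06 for nanos3 (-0.86 to 0.73). edgeR's quasi-likelihood test called 0 of the 5, and 0.0974% of all genes (19 genes; 75 with the replicate number as a block, no member among them). None of the 5 had an unadjusted p under 0.05 (smallest 0.443), and DESeq2 called 0 of them. All 5 ranges overlapped between hs:wnt8a embryos and siblings, and the share of all genes that did so is not given here. Without 7.5 hpf replicate 1 of the siblings, the library with 180 CPM of wnt8a_1, none of the 5 was called. The values were then 0.41 for ddx4, -0.0062 for dazl, 0.41 for tdrd7a, 0.41 for dnd1 and 0.32 for nanos3. That fit kept transgenic replicate 1, which deviated with the left-out library (correlation 0.726) and was high in ddx4, tdrd7a, dnd1 and nanos3. Without both, edgeR also called 0 of the 5. Transgenic minus sibling log2 CPM in replicates 2 and 3 was 0.18 and 0.18 for ddx4 and 0.19 and 0.19 for tdrd7a. It was -0.51 and 0.22 for dnd1, 0.34 and -0.31 for nanos3, and 0.32 and -0.09 for dazl. Without sibling replicate 1 alone, the stage change in siblings of hs:wnt8a was -3.22 for ddx4 (edgeR adjusted p = 6.43e-05). It was -1.52 for dazl (adjusted p = 0.0133) and -0.75 for nanos3 (adjusted p = 0.151).

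At 5.5 hpf the hs:wnt8a embryos against their siblings gave 0.35 for ddx4 (95% interval -0.52 to 1.23), 0.16 for dazl (-0.71 to 1.04), -0.32 for tdrd7a (-0.95 to 0.32), -0.18 for dnd1 (-1.17 to 0.81) and -0.61 for nanos3 (-1.52 to 0.30). edgeR called 0 of the 5 and 0 genes in all, 0% of those tested. Across all genes tested, 649 genes had an unadjusted p under 0.05 and DESeq2 called 5, none of them a member, and the smallest unadjusted p of a member was 0.177. The sizes turned on sibling replicate 2, without which the values were 0.08 for ddx4, 0.13 for tdrd7a, 0.37 for dnd1 and -0.04 for nanos3. For dazl, siblings without replicate 2 averaged 4.12 CPM, against 4.01 CPM in hs:wnt8a embryos. These comparisons set 2 libraries against 3 that carried wnt8a_1 at 392 to 721 CPM.

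For hs:dkk1b at 7.5 hpf the log2 fold changes were -0.11 for ddx4 (95% interval -0.92 to 0.70), 0.15 for dazl (-0.71 to 1.02), 0.04 for tdrd7a (-0.53 to 0.61), 0.14 for dnd1 (-0.76 to 1.05) and 0.03 for nanos3 (-0.78 to 0.85). edgeR called 0 of the 5, beside 0.154% of all genes (30 genes, and 146 with the replicate block, no member among them). The smallest unadjusted p of a member was 0.715 and DESeq2 called 0 members. At 5.5 hpf the hs:dkk1b values were -0.03 for ddx4 (-0.82 to 0.75), -0.33 for dazl (-1.12 to 0.45), -0.27 for dnd1 (-1.15 to 0.62) and -0.10 for nanos3 (-0.90 to 0.70). tdrd7a had nearly equal means at 5.5 hpf, 25.1 ± 6.70 CPM in hs:dkk1b embryos and 25.2 ± 5.34 CPM in siblings (SD, n = 3 each). Here too edgeR called 0 of the 5, beside 0.0513% of all genes (10 genes, and 48 with the replicate block, no member among them), and DESeq2 called 0 members (smallest unadjusted p 0.384).

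One member was apart from its siblings in 1 of the 4 transgene comparisons. At 5.5 hpf dnd1 had 5.18, 5.80 and 5.96 CPM in hs:dkk1b embryos and 6.23, 6.75 and 7.37 CPM in siblings. The groups did not overlap, where 2.34% of all tested genes were lower without overlap. That share covers only the lower direction of this comparison. dnd1 was singled out after all 5 genes were looked at in all 4 comparisons. Shares for the higher direction and for the other comparisons are not given here. Of the 3 same-numbered pairs at 5.5 hpf, which deviate together, dnd1 and dazl were lower in the hs:dkk1b library of all 3, and at 7.5 hpf ddx4 and tdrd7a were higher in the hs:wnt8a library of all 3. The 2 same-numbered pairs of hs:wnt8a at 5.5 hpf did not deviate together (correlations -0.068 and -0.087), and replicate 2 of those siblings stood apart from its group. In log2 CPM, nanos3 differed by -0.09 and -1.35 in replicates 1 and 2, and dazl by 0.11 and 0.47. The share of all genes with equal signs over such pairs was not counted. The fitted dnd1 change (-0.27, given above) was not called. Its interval, like those of all transgene effects here, comes from a model that ignores the pairing. Shared replicate spread therefore widens the intervals where pairs deviate together, which those of hs:wnt8a at 5.5 hpf did not. The dnd1 differences within the 3 hs:dkk1b pairs were -0.26, -0.22 and -0.30 in log2 CPM. With the replicate block dnd1 was not called either. At 85 to 121 reads per library, the exact Poisson intervals of single libraries of the 2 groups overlap.

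The transgene effects did not differ detectably between the times. The hs:wnt8a effect at 7.5 hpf minus that at 5.5 hpf ran from -0.24 (ddx4, 95% interval -1.43 to 0.95) to 0.55 (nanos3, -0.65 to 1.75) on the log2 scale, and the hs:dkk1b difference ran from -0.08 (ddx4, -1.20 to 1.05) to 0.49 (dazl, -0.68 to 1.66). edgeR's interaction test called 0 of the 5 for hs:wnt8a, beside 0.00513% of all genes (1 gene), and 0 of the 5 for hs:dkk1b, beside 0% of all genes. The smallest unadjusted p of a member was 0.292 for hs:wnt8a and 0.393 for hs:dkk1b. For the hs:dkk1b difference 170 genes had an unadjusted p under 0.05 and DESeq2 called 1 gene, and by DESeq2 no member was called for either transgene.

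Siblings of the 2 lines, which differ in heat regime, were compared directly. At 7.5 hpf siblings of hs:wnt8a against siblings of hs:dkk1b gave log2 fold changes from -0.20 (ddx4, 95% interval -1.01 to 0.60) to 0.55 (nanos3, -0.25 to 1.35), and edgeR called 0 of the 5, beside 1.77% of all genes. Without 7.5 hpf replicate 1 of the siblings of hs:wnt8a, edgeR also called 0 of the 5, and 495 of 19439 genes. At 5.5 hpf the values ran from -0.21 (dazl, -1.0 to 0.57) to 0.36 (ddx4, -0.43 to 1.15), and again 0 of the 5 were called, beside 7.73% of all genes. DESeq2 called none of the 5 at either time, and the smallest unadjusted p of a member was 0.169 at 7.5 hpf and 0.354 at 5.5 hpf. Group means of ddx4 at 5.5 hpf were 226 ± 81.1 CPM in siblings of hs:wnt8a and 177 ± 94.4 CPM in siblings of hs:dkk1b (SD, n = 3 each), each with 1 library far from the others in opposite directions. Without replicate 2 of both genotypes of the hs:dkk1b line, the ddx4 difference at 5.5 hpf was 0.89 (edgeR adjusted p = 0.0435). That fit called 2823 of 19380 genes.

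Libraries stood apart from their groups in 4 sets, each with its own pattern over these genes. In replicate 2 of the siblings of hs:wnt8a at 5.5 hpf, nanos3, dnd1 and tdrd7a were at 2.45, 2.40 and 2.07 times the mean of the other libraries of the group, while ddx4 and dazl were at 0.486 and 0.606 times. It also held the least wnt8a_1 of its group. Replicate 2 of hs:dkk1b embryos at 5.5 hpf held ddx4 and dazl at 2.67 and 2.1 times the others, and the siblings of the same number at 2.34 and 2.63 times. There dnd1 was at 1.04 and 0.992 times, tdrd7a at 1.55 and 1.40 times and nanos3 at 1.43 and 1.35 times. The yolk syncytial layer markers of these 2 libraries summed to 211 and 220 CPM, against 549 to 606 CPM in the other 5.5 hpf libraries of the line.

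At 7.5 hpf, replicate 1 of hs:wnt8a embryos and of their siblings had more of 4 members than the other libraries, with ddx4 at 1.5 and 1.68 times, nanos3 at 1.68 and 1.91 times, tdrd7a at 1.5 and 1.66 times and dnd1 at 2.40 and 3.04 times. dazl was at 0.767 and 0.857 times in the same libraries. Replicate 1 of hs:dkk1b embryos at 7.5 hpf and its sibling library had high hsp70l, the inducible heat-shock protein gene, at 2654 and 1228 CPM, against 40.7 to 78.0 CPM in the other 4 libraries. In that transgenic library nanos3 was at 1.77 times the others, and no other member exceeded 1.5 times in the pair. Above 1.5 times were thus ddx4 and dazl in both genotypes of replicate 2 of the hs:dkk1b line at 5.5 hpf, with tdrd7a in the transgenic library alone, and the same 4 members in both genotypes of replicate 1 of the hs:wnt8a line at 7.5 hpf. In transgenic and sibling replicate 2, so were 9 and 8 of 14 maternal oocyte, 6 and 8 of 13 piRNA and 7 and 7 of 15 germ granule genes of the lists below. Among 14 guidance genes 4 and 3 were, and among 21 RNA decay factors 2 and 1. In replicate 1 of the hs:wnt8a line these counts were 2 and 6, 1 and 2, 3 and 3, 0 and 1, and 1 and 1. There 7 and 6 of 13 piRNA genes were lower by more than 1.5 times. So were 3 and 4 oocyte, 4 and 2 germ granule, 0 and 0 guidance and 1 and 2 RNA decay genes. In transgenic and sibling replicate 2 of the hs:dkk1b line, 0 and 0 oocyte and 0 and 0 piRNA genes were. The other lower counts there were 0 and 1 germ granule, 2 and 3 guidance and 2 and 3 RNA decay genes. The share over all genes was not counted.

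**Figure D4:**
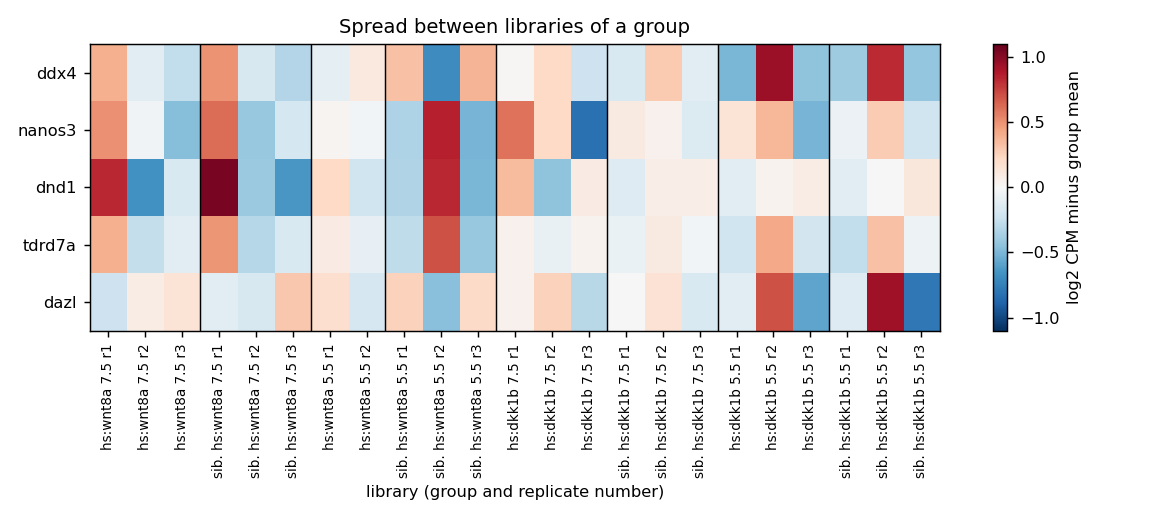
Deviation of each library's log2 CPM from its group mean for the 5 genes, with libraries in columns by group and replicate number (red above, blue below the group mean). Replicate 2 of the siblings of hs:wnt8a at 5.5 hpf is red for nanos3, dnd1 and tdrd7a and blue for ddx4 and dazl, and replicate 2 of both genotypes of the hs:dkk1b line at 5.5 hpf is red for ddx4 and dazl.

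Counted over all 23 libraries, nanos3 and tdrd7a deviated to the same side of their group means in 19 libraries, and so did dnd1 and tdrd7a. ddx4 did so with nanos3 in 16, with tdrd7a in 16, with dazl in 15 and with dnd1 in 12. nanos3 did so with dnd1 in 15 and with dazl in 14. For dazl the count was 12 with tdrd7a and 8 with dnd1. The root mean square difference of centred log2 CPM over the libraries was 0.31 between dnd1 and tdrd7a and 0.37 between nanos3 and tdrd7a. It was 0.48 between nanos3 and dnd1. For dazl it was 0.63 with tdrd7a, 0.68 with ddx4, 0.76 with dnd1 and 0.79 with nanos3. For ddx4 it was 1.13 with tdrd7a, 1.14 with dnd1 and 1.29 with nanos3. These libraries share depth, time and handling, so the figures are descriptions only.

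By that same measure over 11420 genes with a mean log2 CPM of at least 1, the genes most like ddx4 were aldh18a1 (0.15), anxa5b (0.20) and mylk5 (0.20), where the median over all genes was 1.44. Those most like dazl were npepl1 (0.23), CR391944.1 (0.26) and alas1 (0.26, median over all genes 0.90). For tdrd7a they were cfdp1 (0.17), stx11b.2 (0.19) and retsatl (0.19, median 0.57). For dnd1 they were otofa (0.29), piezo1 (0.31) and myo10 (0.31, median 0.68), and for nanos3 eef1da (0.28), pde12 (0.30) and FO704673.1 (0.30, median 0.62). The closest of these ran from 12.0 to 184 CPM (aldh18a1) and none was another germ cell gene of the lists below.

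Other germ granule and germ plasm genes were tested beside the members (15 of 19 listed). From this and each later list, 3 genes were named for the smallest p in the stage change of siblings of hs:dkk1b. Their calls in that group are therefore not independent of the choice. In hs:wnt8a embryos 6 were lower and 1 higher at 7.5 hpf than at 5.5 hpf, in their siblings 5 and 2, in hs:dkk1b embryos 5 and 1, and in their siblings 6 and 0. Of all genes tested 18.1%, 18.4%, 15% and 15.4% were called lower in these groups, and 21.5%, 21.8%, 15.1% and 15.6% higher. The counts of every list below stand beside those shares where they come from the same fit. Fits with other scaling or left-out libraries called other shares of all genes, with whole-table counts beside those values or in the closing section. Median log2 fold changes of this list were -0.78, -0.40, -0.51 and -1.02 in the same order, beside 0.04 to 0.05 over all genes. h1m, the maternal linker histone later kept in germ cells, averaged 6.63 ± 2.20 CPM at 7.5 hpf in hs:wnt8a embryos and 67.7 ± 9.51 CPM at 5.5 hpf (SD, n = 3 and 2), a log2 fold change of -3.36 ± 0.54 (SE, edgeR adjusted p = 1.53e-04). Its other log2 fold changes were -3.03 in siblings of hs:wnt8a, -2.70 in hs:dkk1b embryos and -2.47 in their siblings, all called. Without 5.5 hpf replicate 2 of both genotypes of the hs:dkk1b line, h1m was at -1.94 in hs:dkk1b embryos (edgeR adjusted p = 0.00187) and at -1.81 in their siblings (adjusted p = 0.00236). tdrd6, the Tudor protein that binds the germ plasm organiser Bucky ball, and rbpms2b, another of its binding partners, were also lower in all 4 groups, at -0.69 to -1.02 for tdrd6 and -1.74 to -2.81 for rbpms2b. Without that pair rbpms2b was at -1.13 in hs:dkk1b embryos (adjusted p = 0.0771) and at -1.37 in their siblings (adjusted p = 0.0312; 0.0633 without the sibling library alone). The rbpms2b call in hs:dkk1b embryos was also lost without 7.5 hpf replicate 3 (-1.47, adjusted p = 0.104), and in their siblings the value was -3.03 without 7.5 hpf replicate 2. ybx1, the most abundant of the list, was not called, at -0.21 to 0.07. nanos1 was called higher in hs:wnt8a embryos (2.39) and their siblings (1.91). It was not called in hs:dkk1b embryos (0.85, edgeR adjusted p = 0.210) or their siblings (0.89, adjusted p = 0.174). The nanos1 level was near the floor in siblings of hs:wnt8a at 5.5 hpf. It was 0.49 CPM in replicate 2 and 0.068 to 0.13 CPM in the others. Its calls were lost without either 5.5 hpf library of hs:wnt8a embryos (adjusted p = 0.0614 and 0.0670) and without 5.5 hpf replicate 1 or 3 of the siblings (adjusted p = 0.0541 and 0.0566), and without sibling replicate 2 nanos1 was at 3.09. Without replicate 2 of the hs:dkk1b line at 5.5 hpf, 3 genes of this list were lower in hs:dkk1b embryos and 2 higher. Of all genes, 1757 were then lower and 1791 higher without the transgenic library (1971 and 2076 without both genotypes), against 2916 and 2953 with every library kept.

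Of the piRNA pathway, which silences transposons in germ cells, 13 of 15 listed genes were tested. Lower at 7.5 hpf were 5 in hs:wnt8a embryos, 5 in their siblings, 3 in hs:dkk1b embryos and 3 in their siblings, with 0, 1, 1 and 0 higher. Medians were -0.25, -0.25, -0.30 and -0.74. tdrd9, a Tudor helicase of the pathway, averaged 9.76 ± 2.01 CPM at 7.5 hpf and 73.0 ± 5.67 CPM at 5.5 hpf in hs:wnt8a embryos (SD, n = 3 and 2). Its log2 fold changes lay between -3.12 and -2.83 over the 4 groups, and all were called by edgeR. Without 5.5 hpf replicate 2 of both genotypes of the hs:dkk1b line, tdrd9 was at -2.13 in hs:dkk1b embryos and at -2.48 in their siblings, still called (adjusted p = 4.44e-05 and 1.21e-05). piwil1, the Piwi protein Ziwi, was called at -2.63 to -1.93 and tdrd12 at -2.16 to -1.51. In that replicate piwil1 had 31.6 CPM in transgenic embryos and 28.0 CPM in siblings, at 6.75 and 5.25 times the mean of the other libraries. Without the pair piwil1 was at -1.09 in hs:dkk1b embryos (edgeR adjusted p = 0.148) and at -0.88 in their siblings (adjusted p = 0.227), and tdrd12 was at -1.45 (adjusted p = 0.0121) and -1.27 (adjusted p = 0.0208; 0.0639 without the sibling library alone). With 1 library left out at a time, the piwil1 call was lost in 3 of 5 fits in hs:wnt8a embryos, 5 of 6 in their siblings, 2 of 6 in hs:dkk1b embryos and 4 of 6 in their siblings, and that of tdrd12 in 4 of 5 fits in hs:wnt8a embryos. Scaling to total counts alone also ended the piwil1 call in siblings of hs:wnt8a (-1.67, adjusted p = 0.0632). Without replicate 1 of the hs:wnt8a line at 7.5 hpf, 3 genes of the list were lower in hs:wnt8a embryos. Of all genes, 3395 were then lower without the transgenic library (3646 without both genotypes), against 3534 with every library kept. tdrd1, tdrd5 and rnf17 were not called in any group, though rnf17 in siblings of hs:wnt8a passed without 7.5 hpf replicate 1 (1.2, adjusted p = 0.0499).

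The germ cell guidance list (14 of 14 tested) moved in both directions. Among its genes 6 were lower and 3 higher at 7.5 hpf in hs:wnt8a embryos, 5 and 3 in their siblings, 4 and 2 in hs:dkk1b embryos, and 4 and 2 in their siblings. Medians lay near 0, at -0.17, -0.19, 0.13 and -0.18, and with scaling to total counts alone the first 2 turned to 0.04 and 0.04, with 5, 4, 4 and 4 genes higher and 4, 4, 3 and 3 lower in the same order of groups. cxcr4b, the chemokine receptor of migrating germ cells, was lower in all 4 groups, with log2 fold changes of -3.10 to -2.45. Its level averaged 9.96 ± 4.71 CPM at 7.5 hpf and 85.2 ± 11.8 CPM at 5.5 hpf in siblings of hs:wnt8a (SD, n = 3 each; SE 0.42, edgeR adjusted p = 3.23e-05). Without 5.5 hpf replicate 2 of both genotypes of the hs:dkk1b line, cxcr4b was at -2.20 in hs:dkk1b embryos and at -1.82 in their siblings, still called (adjusted p = 3.77e-05 and 1.58e-04). Its ligand cxcl12a was higher in all 4 groups, at 0.54 to 0.65, and averaged 59.8 ± 5.34 CPM at 7.5 hpf and 39.4 ± 2.09 CPM at 5.5 hpf in siblings of hs:wnt8a. zeb1a, a repressor of E-cadherin, was lower in all 4 groups, at -1.28 to -0.96. These genes are expressed in somatic tissues as well as along the germ cells' path.

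A list of maternal oocyte genes (14 of 21 tested) held zona pellucida, translational control and growth factor genes of the egg. Of the 14, 11 were lower in hs:wnt8a embryos, 10 in their siblings, 8 in hs:dkk1b embryos and 7 in their siblings, with none called higher. Their medians were -1.49, -1.42, -1.43 and -0.96. Without replicate 2 of the hs:dkk1b line at 5.5 hpf, 4 were lower in hs:dkk1b embryos and 4 in their siblings, and without replicate 1 of that line at 7.5 hpf 4 were lower in the siblings. Of all genes, 2916 and 3004 were lower with every library kept. Without 5.5 hpf replicate 2 of the group itself 1757 and 1807 were, and without it in both genotypes 1971 and 2165. In the siblings, leaving out 7.5 hpf replicate 1 gave 2214 (2211 in both genotypes). gdf3, the maternal TGF-beta ligand of mesendoderm induction, and org, the oogenesis-related gene, were called in all 4 groups, at -2.76 to -1.61 and -2.81 to -2.06. pabpn1l, a poly(A)-binding protein known from mouse oocytes, was called at -3.12 to -2.22, with group means of 0.456 to 0.690 CPM at 7.5 hpf and 3.23 to 4.45 CPM at 5.5 hpf. Without the pair of 5.5 hpf replicate 2, gdf3 was at -1.98 in hs:dkk1b embryos (edgeR adjusted p = 2.22e-04) and at -0.93 in their siblings (adjusted p = 0.0219; 0.117 without the sibling library alone), and pabpn1l was at -2.15 in hs:dkk1b embryos (adjusted p = 0.00329). Without 7.5 hpf replicate 1 of the hs:wnt8a line, pabpn1l was at -3.76 in hs:wnt8a embryos and at -3.72 in their siblings. The ddx4 changes of -3.16 to -2.37 overlapped the range of pabpn1l, while dnd1, at -0.93 to -0.53, lay above the list's median in every group.

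RNA decay and deadenylation factors (21 of 21 tested) showed no common direction. In hs:wnt8a embryos 8 were higher and 3 lower at 7.5 hpf, in their siblings 8 and 4, in hs:dkk1b embryos 2 and 4, and in their siblings 1 and 5. Medians were 0.16, -0.06, 0.02 and -0.04, and with scaling to total counts alone all 4 were above 0, at 0.38, 0.18, 0.15 and 0.09. zfp36l1b, which binds AU-rich elements and recruits deadenylases, was higher in all 4 groups (0.68 to 1.09). cnot6a, a catalytic deadenylase subunit, and ythdf2, a reader of N6-methyladenosine that helps clear maternal RNA in zebrafish, were called lower in all 4 groups with TMM scaling, at -0.67 to -0.50 and -0.55 to -0.39. With scaling to total counts alone cnot6a was still called in all 4, and ythdf2 only in siblings of hs:dkk1b (-0.22, -0.24 and -0.26 in hs:wnt8a embryos, their siblings and hs:dkk1b embryos, adjusted p = 0.116, 0.0532 and 0.0546). The ythdf2 call was also lost without 5.5 hpf replicate 1 in hs:wnt8a embryos (adjusted p = 0.131), and in hs:dkk1b embryos without 5.5 hpf replicate 2 (adjusted p = 0.0959) or 7.5 hpf replicate 3 (adjusted p = 0.0789) and in a fit to the groups compared alone (adjusted p = 0.0914). Counts for this list moved with the scaling: to total counts alone, 1, 1, 1 and 2 genes were lower and 8, 9, 4 and 3 higher in the same order of groups. In those fits 2461, 2343, 2072 and 2197 of all 19504 genes were called lower, and 5668, 6042, 3867 and 3909 higher. Without replicate 2 of the hs:dkk1b line at 5.5 hpf 1 was lower and 1 higher in hs:dkk1b embryos, and without replicate 1 of that line at 7.5 hpf 2 were lower in hs:dkk1b embryos and 3 in their siblings. Of all genes, the former fit called 1757 lower and 1791 higher without the transgenic library (1971 and 2076 without both genotypes). The latter called 2196 lower in hs:dkk1b embryos and 2214 in their siblings (2133 and 2211 without both genotypes).

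Over these 5 lists together, 77 genes beside the members were tested against each transgene. edgeR called 0 of them in each of the 4 comparisons of transgenic embryos with siblings, and DESeq2 also called 0. At an unadjusted p under 0.05 there were 0 for hs:wnt8a at 7.5 hpf, 2 for hs:wnt8a at 5.5 hpf, 4 for hs:dkk1b at 7.5 hpf and 1 for hs:dkk1b at 5.5 hpf. Of all 19504 genes tested, 309, 649, 520 and 277 had such a p by edgeR in the same order.

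**Figure D5:**
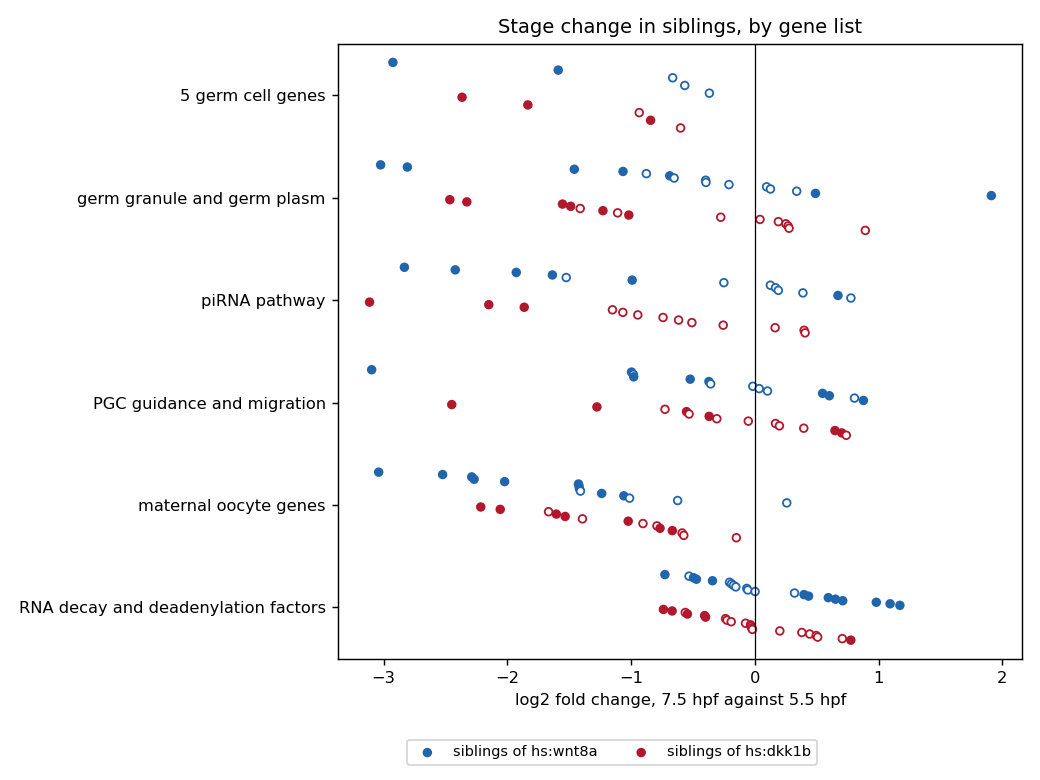
Log2 fold changes between 7.5 and 5.5 hpf in siblings of hs:wnt8a and siblings of hs:dkk1b, for the 5 germ cell genes and each gene list; each point is a gene, filled where it passed edgeR's quasi-likelihood test at an adjusted p under 0.05. All 5 germ cell genes lie below 0 in both sibling groups, ddx4 furthest at -2.93 and -2.37, while the guidance and RNA decay lists spread to both sides of 0.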

How the data were processed

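RNA-seq of whole embryos was measured in 23 libraries, grouped by the sample titles into 8 groups. The authors deposited 1 table per library. Its expression column holds whole numbers, taken here for read counts, and the authors' TPM column served for levels between genes. The submitters' processing notes name edgeR and the GRCz11 build, while the aligner, the counter and any use of strand were not given in the sources used here. Reads of overlapping genes or near-identical copies may therefore be split between them.

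One model for all counts was fitted with edgeR 4.0.16 in R 4.3.3 (filterByExpr by group, TMM scaling, quasi-likelihood F test), with p-values adjusted by the Benjamini-Hochberg method over 19504 genes and 0.05 as the threshold. A standard error is the size of the log2 fold change over the root of its F value. The 12 comparisons were 4 of transgenic embryos with siblings, 4 of 7.5 with 5.5 hpf, 2 of transgene effects between times, and 2 of siblings between lines. Counting intervals are exact Poisson 95% intervals and cover counting error only. Chi-square over its degrees of freedom was 2.88 to 48.3 in the 22 pairs of libraries within groups, beyond sampling noise, and none was merged. Fitting was tested on simulated counts. Alternatives were DESeq2 1.42.0, other scalings, no filter, fewer groups, a replicate block and left-out libraries. Summaries used Python 3.11.15, pandas 2.3.3, scipy 1.17.1 and matplotlib 3.10.9.

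The 5 genes and the lists were chosen with earlier results of these data known. The 5 are named throughout. From each list, the 3 genes with the smallest p in the stage change of siblings of hs:dkk1b are named. For each of the 5, the 3 genes most alike in pattern are named. Left out of that choice were the 5 themselves and symbols with a colon, or starting with LOC, zgc or si. The targeted genes dkk1b and wnt8a and the heat-shock gene hsp70l are named as checks. Further list genes (ybx1, nanos1, tdrd1, tdrd5, rnf17) were chosen after their values were seen. Same-numbered transgenic and sibling libraries deviated together, with correlations of 0.307 to 0.726 at 7.5 hpf and of 0.476 to 0.707 for hs:dkk1b at 5.5 hpf. The correlations were -0.068 and -0.087 for hs:wnt8a at 5.5 hpf. Siblings of hs:dkk1b of the same number also deviated together between times (0.167 to 0.311). The pairing is seen in the data and not stated by the labels.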

Additional observations from a re-analysis of the deposited data

How the results depend on the processing

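The calls of ddx4 at 7.5 against 5.5 hpf held in all 4 genotype groups under every alternative, and those of dazl held everywhere but in hs:dkk1b embryos. The calls of tdrd7a were lost under several left-out libraries, and those of dnd1 and tdrd7a in the hs:wnt8a line were gained under others, as given above. The 4 transgene comparisons called 0 of the 5 genes under every alternative. Low counts limit dazl and dnd1, groups of 2 or 3 libraries limit every interval, and the causes of the shifts below were not tested.

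Over the whole table, DESeq2 called 29 genes for hs:wnt8a at 7.5 hpf (19 by edgeR), 5 at 5.5 hpf (0), 59 for hs:dkk1b at 7.5 hpf (30), 27 at 5.5 hpf (10), 4 and 1 for the differences of effects of hs:wnt8a (1) and hs:dkk1b (0), and 913 between siblings of the lines at 7.5 hpf (345). A fit to only the groups compared called 9 for hs:wnt8a at 7.5 hpf, 0 for hs:dkk1b at 5.5 hpf, 2 for the hs:wnt8a difference, and 23 and 466 between lines at 7.5 and 5.5 hpf (1508 at 5.5 hpf otherwise). With no filter the lines differed in 205 genes at 7.5 hpf.

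With the replicate block, pairing same-numbered libraries, 75 and 113 genes were called for hs:wnt8a at 7.5 and 5.5 hpf, 146 and 48 for hs:dkk1b at 7.5 and 5.5 hpf, and 19 and 3 for the hs:wnt8a and hs:dkk1b differences. Under the block nanos3 was at -0.029 for hs:dkk1b at 7.5 hpf and dnd1 at 0.071 for the hs:wnt8a difference, both with the opposite sign and not called. tdrd7a passed in siblings of hs:wnt8a (-0.67, adjusted p = 0.0420), where the numbers do not pair the libraries, and no other member's call changed with the block.

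Scaling to total counts alone moved the median change of all genes between times to 0.27, 0.27, 0.17 and 0.16 in hs:wnt8a embryos, their siblings, hs:dkk1b embryos and their siblings. It gave 5668 higher and 2461 lower calls in hs:wnt8a embryos (4184 and 3534 with TMM), 6042 and 2343 in their siblings (4259 and 3581), 3867 and 2072 in hs:dkk1b embryos (2953 and 2916) and 3909 and 2197 in their siblings (3046 and 3004). Between lines at 5.5 hpf it gave 438 and 1482 (608 and 900).

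Leaving out libraries in turn, and 3 same-numbered pairs chosen after seeing the data, gave whole-table counts of 11 to 17 for hs:wnt8a at 7.5 hpf, 10 to 23 and 5 to 25 for hs:dkk1b at 7.5 and 5.5 hpf, 0 to 2 for each difference of effects, and 55 to 873 and 353 to 2823 between lines at 7.5 and 5.5 hpf. For the stage change the counts were 4727 to 7842 in hs:wnt8a embryos, 3548 to 5789 in hs:dkk1b embryos and 3628 to 5699 in their siblings. Members called numbered 2 to 4 in siblings of hs:wnt8a, where 5865 to 8276 genes were called over the whole table. They numbered 0 to 1 between lines at 5.5 hpf and 1 to 3 in hs:dkk1b embryos. The fits with 1 member called in hs:dkk1b embryos called 3548, 4006 and 4272 genes in all, against 5869 with every library kept.

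The log2 fold changes that turned sign or crossed the threshold in these fits ranged as follows. For the stage change they were -0.11 to 0.39 for nanos3 and -1.26 to -0.43 for dnd1 in hs:wnt8a embryos, -0.95 to -0.22 for tdrd7a, -0.75 to 0.20 for nanos3 and -1.31 to -0.015 for dnd1 in their siblings, -0.91 to -0.56 for tdrd7a and -1.60 to -0.90 for dazl in hs:dkk1b embryos, and -0.97 to -0.67 for tdrd7a in their siblings. For hs:wnt8a at 7.5 hpf they were -0.11 to 0.41 for ddx4, -0.030 to 0.25 for dazl, -0.094 to 0.41 for tdrd7a, -0.88 to 0.41 for dnd1 and -0.35 to 0.32 for nanos3. At 5.5 hpf they were -0.039 to 0.34 for dazl, -0.53 to 0.13 for tdrd7a and -0.43 to 0.37 for dnd1. For hs:dkk1b at 7.5 hpf they were -0.23 to 0.047 for ddx4, -0.023 to 0.094 for tdrd7a, -0.12 to 0.34 for dnd1 and -0.29 to 0.34 for nanos3. At 5.5 hpf they were -0.68 to 0.50 for ddx4, -0.79 to 0.30 for dazl, -0.25 to 0.18 for tdrd7a and -0.29 to 0.12 for nanos3. The hs:wnt8a differences between times ranged over -0.46 to 0.056 for ddx4, -0.28 to 0.10 for dazl, -0.71 to 0.59 for dnd1 and -0.023 to 0.93 for nanos3. Those of hs:dkk1b ranged over -0.61 to 0.56 for ddx4, -0.14 to 0.94 for dazl, -0.13 to 0.29 for tdrd7a and -0.19 to 0.44 for nanos3. Between lines they were -0.15 to 0.13 for dazl, -0.21 to 0.23 for tdrd7a and -0.42 to 0.62 for dnd1 at 7.5 hpf, and 0.15 to 0.89 for ddx4, -0.53 to 0.42 for dazl, -0.54 to 0.11 for tdrd7a, -0.60 to 0.20 for dnd1 and -0.25 to 0.57 for nanos3 at 5.5 hpf.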
